A study of Mus musculus with 6 samples.

Results

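The genes described here are the VEGF ligands, receptors and neuropilins of the mouse: the ligands Vegfa, Vegfb, Vegfc and Pgf, the receptors Flt1, Kdr and Flt4, and the co-receptors Nrp1 and Nrp2. They were chosen by gene symbol, with earlier results of these data known, and all 9 were found among the 54532 Ensembl genes of the deposited count matrix. RNA was sequenced from 6 tumours of G422 cells, a line of mouse glioblastoma, grown under the skin of outbred Kunming mice. In 3 tumours the cells carried a construct labelled shNgb, by its name a hairpin against Ngb, which encodes the oxygen-binding protein neuroglobin, and in 3 the vector control, labelled shVec. The cells of both groups were infected with lentivirus and the tumours had no further treatment. The design text speaks of transfection with Ngb rather than with a hairpin, and the sample labels are followed here. The cell line tag differs by sample while the source name is G422 throughout, and the tumours are read as a single line. The age and sex of the mice, the hairpin sequence, the number of clones in each line and whether each tumour came from its own mouse were not stated in the labels. P-values therefore measure only how these 6 tumours spread. Each tumour is a mixture of G422 cells and cells of the host, including its vessels, and in such bulk RNA fewer cells of a type and less RNA per cell cannot be told apart.

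VEGF-A is the ligand that drives the growth of new blood vessels, and its gene is a standard target of the hypoxia-inducible factors. It binds the receptor tyrosine kinases encoded by Flt1 (VEGFR1) and Kdr (VEGFR2). KDR carries most of the growth signal in endothelial cells, while FLT1 binds VEGF-A tightly, signals weakly and also exists as a soluble form that traps the ligand. VEGF-B and placental growth factor, the product of Pgf, bind FLT1, and VEGF-C binds FLT4 (VEGFR3), the receptor of lymphatic endothelium. Neuropilins are co-receptors without kinase activity that bind both VEGFs and class 3 semaphorins.

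The promoters of Vegfa and of its receptors Flt1 and Kdr are shown because Vegfa was the member whose groups did not overlap and these receptors bind its product. Each is the 250 bases before the transcript start in RefSeq (build GRCm38.p6), all on the minus strand, at chr17:46032378-46032627 for Vegfa, chr5:147726012-147726261 for Flt1 and chr5:75978456-75978705 for Kdr. Capitals mark matches, on either strand, to GGGCGG (a GC box), to the cores ACGTG and GCGTG of hypoxia response elements, and to TGACGTCA (a cyclic AMP response element); no marked matches overlap.

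Vegfa: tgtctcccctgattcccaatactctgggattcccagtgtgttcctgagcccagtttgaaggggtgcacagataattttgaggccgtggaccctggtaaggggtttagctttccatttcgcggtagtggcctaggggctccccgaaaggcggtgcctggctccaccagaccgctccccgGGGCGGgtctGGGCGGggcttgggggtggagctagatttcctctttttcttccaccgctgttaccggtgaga

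Flt1: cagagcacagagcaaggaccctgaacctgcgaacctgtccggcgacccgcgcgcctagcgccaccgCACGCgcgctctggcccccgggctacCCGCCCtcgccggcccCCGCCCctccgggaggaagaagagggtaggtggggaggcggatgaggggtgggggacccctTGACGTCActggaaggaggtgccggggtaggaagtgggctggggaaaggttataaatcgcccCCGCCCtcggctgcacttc

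Kdr: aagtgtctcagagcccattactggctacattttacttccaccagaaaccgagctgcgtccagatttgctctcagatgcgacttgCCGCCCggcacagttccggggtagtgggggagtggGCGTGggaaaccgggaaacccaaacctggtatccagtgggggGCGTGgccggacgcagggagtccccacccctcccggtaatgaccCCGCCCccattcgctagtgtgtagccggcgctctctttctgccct

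The Vegfa window held GGGCGG at 72 and 62 bases before the start and no ACGTG or GCGTG. The Kdr window held GCGTG at 131 and 89 bases before the start, and the Flt1 window held GCGTG at 184 bases and TGACGTCA at 81 bases before the start. Over all 9 members the RefSeq table held 11 promoters. Of these, 10 contained GGGCGG, 7 GCGTG, 1 ACGTG and 1 TGACGTCA. Among all 32851 promoters of the same length, 32.7% held GGGCGG, 28.2% GCGTG, 16.6% ACGTG and 1.55% TGACGTCA. The 1 ACGTG lay before a second, internal start of Vegfa at chr17:46025164-46025413. These matches describe the letters in the windows and are not sites of binding; the hypoxia response element described for human and rat Vegfa lies further upstream than such a window reaches.

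The shNgb libraries held 21018697 to 25620667 reads and the shVec libraries 19630319 to 22427004, and between 22158 and 23303 genes had reads in a library. Ngb itself had 18, 19 and 11 reads in the shNgb tumours and 28, 23 and 13 in the shVec tumours, and the groups overlapped in CPM (log2 fold change -0.59, SE 0.42, edgeR adjusted p = 0.9997). A knockdown was therefore not detectable in these few reads. Correlations of log2 CPM between libraries, across genes, ran from 0.976 to 0.988 between groups and from 0.981 to 0.988 within them. Of 16 glioma and neural markers, Olig2, Olig1 and Aqp4 had 0 reads in all 6 libraries and the astrocyte marker Gfap had 15 reads in all, while the progenitor intermediate filament Nes stood at 414 ± 28.7 CPM in shNgb and 506 ± 35.3 CPM in shVec tumours (SD, n = 3 each, here and below). Gfap was picked with its values in view.

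Ligand transcripts, and those of Vegfa above all, dominated the family. FPKM as deposited, which divides reads by gene length and library size, compares levels between genes per length. Over the 6 tumours Vegfa averaged 131.9 FPKM, more than 97.7% of the 12535 protein-coding genes tested, and Vegfb averaged 25.4 FPKM. Then came Nrp2 at 11.7, Vegfc at 8.48, Flt1 at 6.24 and Nrp1 at 4.12 FPKM. Pgf at 1.30, Kdr at 0.941 and Flt4 at 0.389 FPKM were the scarcest, and Kdr exceeded 16.9% of the coding genes tested. The ranges over tumours of neighbours in this order were separate for Vegfa and Vegfb, Vegfb and Nrp2, Nrp1 and Pgf, and Kdr and Flt4. They overlapped for Nrp2 and Vegfc, Vegfc and Flt1, Flt1 and Nrp1, and Pgf and Kdr, although Nrp2 exceeded Vegfc and Flt1 exceeded Nrp1 in all 6 tumours.

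**Figure D1:**
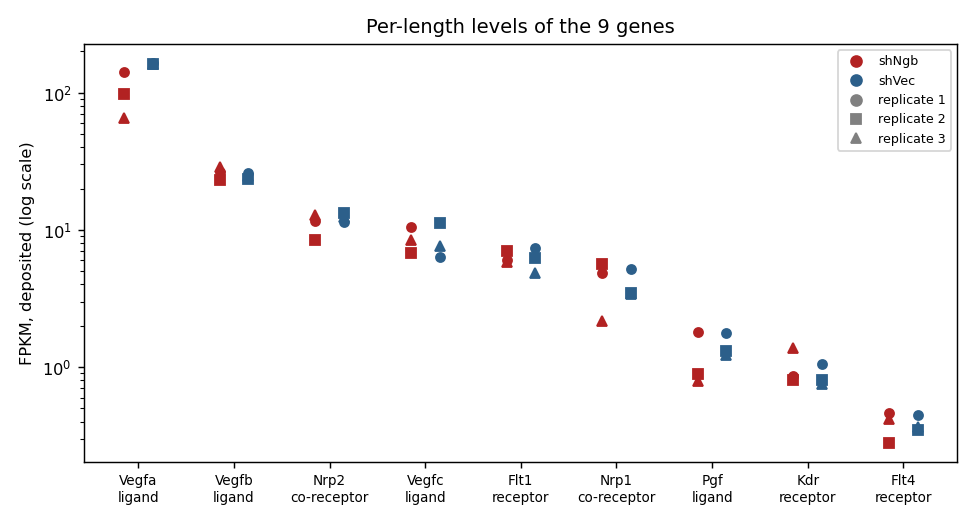
Deposited FPKM (log scale) of the 9 genes, ordered by their mean over 6 tumours, with shNgb points left of shVec points and 1 marker shape per replicate number. Vegfa lay highest in every tumour and Flt4 lowest, with Kdr between 0.752 and 1.37 FPKM.

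Summed over the 4 ligands, Vegfa made up 78.4%, 76.2% and 63.4% of ligand FPKM in the shNgb tumours and 82.9%, 81.7% and 82.8% in the shVec tumours. The share was lower in all 3 shNgb tumours than in any shVec tumour, and lowest in shNgb replicate 3. It is computed from Vegfa itself and is not a result separate from the Vegfa level. Among the 3 receptors Flt1 held 82.1%, 86.6% and 76.4% of receptor FPKM in the shNgb tumours and 83.1%, 84.5% and 81.1% in the shVec tumours. Flt1 exceeded Kdr by 7.09, 8.72 and 4.23 times in FPKM in the shNgb tumours and by 6.99, 7.83 and 6.42 times in the shVec tumours. The counts do not separate the soluble from the membrane form of Flt1.

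Ligand FPKM summed to 180.0, 129 and 103 in the shNgb tumours and to 198, 197 and 195 in the shVec tumours, without overlap, and the sum follows Vegfa. Receptor FPKM summed to 7.40, 8.16 and 7.61 in the shNgb tumours and to 8.88, 7.40 and 5.94 in the shVec tumours, where the shVec tumours held both extremes. Vegfa exceeded Flt1 in FPKM by 23.2, 13.9 and 11.2 times in the shNgb tumours and by 22.3, 25.8 and 33.4 times in the shVec tumours. The groups overlapped in that ratio through shNgb replicate 1. Nrp2 exceeded Nrp1 in FPKM by 2.39, 1.49 and 5.99 times in the shNgb tumours and by 2.22, 3.81 and 3.63 times in the shVec tumours. The smallest and the largest ratio of the neuropilins were both in shNgb tumours.

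No member passed the test between the groups. By edgeR's quasi-likelihood test 0 of 9 members had an adjusted p under 0.05, as did 0 of the 15203 genes tested (0%), and each member's adjusted p was 0.9997. DESeq2 called 5 genes of the 27832 to which it gave an adjusted p (0.0180%), none of them a member, and limma-voom called 0, with 410 genes (2.70%), Vegfa among them, at an unadjusted p under 0.05. An unadjusted edgeR p under 0.05 was reached by 1 member, Vegfa, and by 392 genes in all (2.58%), of which those higher in shNgb made up 1.35% of the genes tested and held no member. The groups did not overlap in CPM (reads scaled to library size) in 1 of the 9 members, Vegfa, which stood lower in shNgb, and in 3.43% of all tested genes in that direction. No member was higher in shNgb without overlap, where 3.67% of tested genes were, and 7.10% did not overlap in either direction. The median log2 fold change of all tested genes was 0.0026, and those of the members ran from -0.67 for Vegfa to 0.23 for Kdr.

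**Figure D2:**
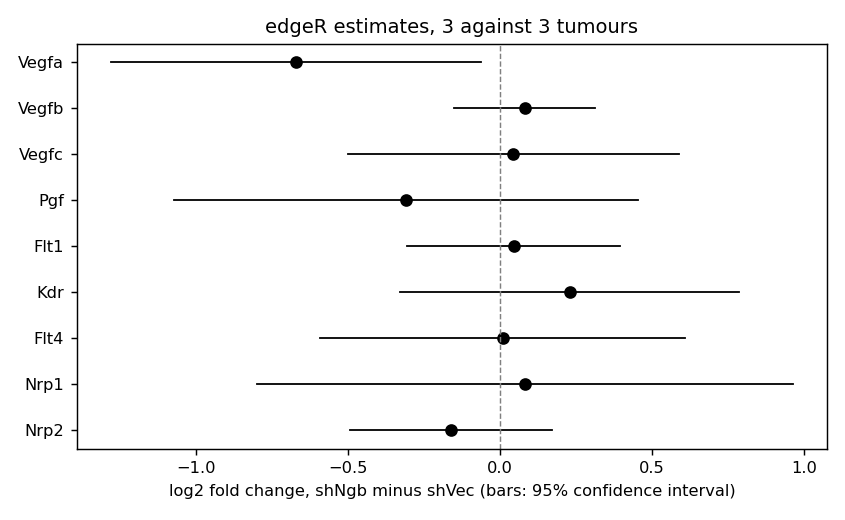
Log2 fold changes (shNgb minus shVec, edgeR) of the 9 genes with 95% confidence intervals, from 3 against 3 tumours. The interval of Vegfa, -1.28 to -0.06, lies below 0 and the other 8 include 0; none of the 9 passed adjustment over all genes.

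Vegfa (ENSMUSG00000023951, chromosome 17, 46016993 to 46032369, minus strand; all gene positions are on GRCm38 in GENCODE M21) stood at 607, 425 and 283 CPM in the shNgb tumours and at 706, 695 and 694 CPM in the shVec tumours. Every shNgb tumour lay below every shVec tumour, and the 3 shVec tumours were almost level. The log2 fold change was -0.67 (SE 0.25, 95% interval -1.28 to -0.06), a fold of 0.628 with an interval of 0.412 to 0.957. The edgeR p was 0.0351 before adjustment, the 252nd smallest of all genes, and 0.9997 after it, so a lower level was not established over all genes. A log2 fold change as low as that of Vegfa was found in 203 genes, 1.34% of those tested. Leaving out shNgb replicate 3 gave -0.44 and leaving out shNgb replicate 1 gave -0.98, and the call was unchanged in both (edgeR adjusted p = 0.9999 and 0.386). The unadjusted edgeR p of Vegfa was above 0.05 when shNgb replicate 2 was left out (0.102) and when shVec replicate 1, 2 or 3 was (0.0718, 0.0652 and 0.0676). It was below 0.05 when shNgb replicate 1 or 3 was left out (0.000393 and 0.0145).

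The shNgb tumours were spread more widely in Vegfa than the shVec tumours. Its highest and lowest shNgb tumours were 2.14-fold apart and its shVec tumours 1.02-fold apart. On the log2 scale these ranges were 1.10 and 0.03, against medians over all tested genes of 0.32 in shNgb and 0.30 in shVec. Of all tested genes, 10.6% had a wider range than Vegfa within shNgb and 99.2% within shVec. Among the 2653 tested genes with a mean of at least 100 CPM, a class chosen after its values were seen, 0.452% had a wider range than Vegfa within shNgb and 97.9% had a wider range within shVec. With 3 tumours a group, whether the spread itself differs between the groups was not tested.

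**Figure D3:**
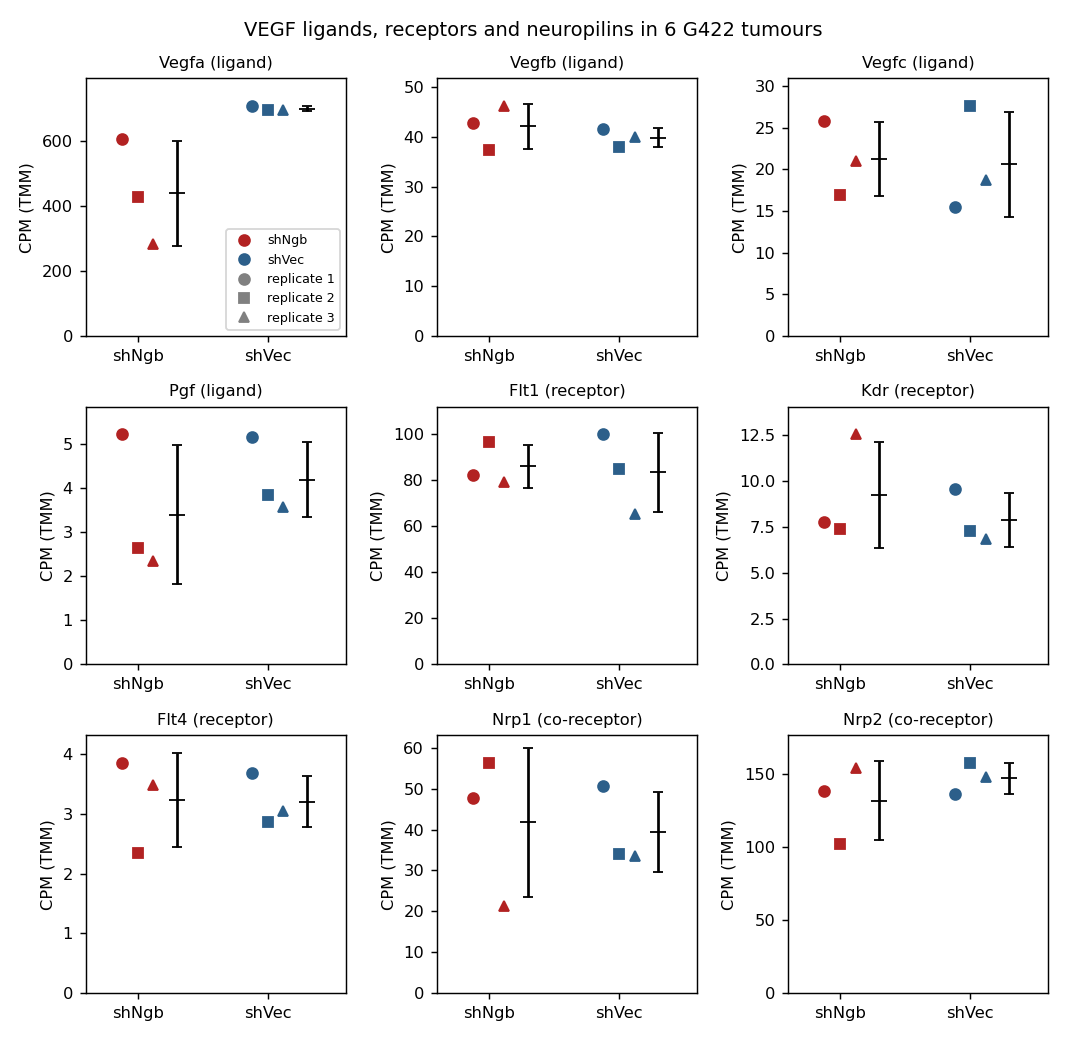
CPM (TMM scaling) of each gene in each tumour, shNgb left and shVec right, with 1 marker shape per replicate number and the mean ± SD of 3 tumours beside the points; each axis starts at 0. The 3 Vegfa values of shNgb lie between 283 and 607 CPM, all below those of shVec, and the groups overlap in the other 8 genes.

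In the other ligands the groups overlapped. Vegfb (ENSMUSG00000024962, chromosome 19, 6982473 to 6987651, minus strand), whose product binds FLT1, stood at 42.8, 37.3 and 46.2 CPM in shNgb and at 41.6, 37.9 and 39.9 CPM in shVec tumours. The lowest and the highest Vegfb value were both from shNgb tumours. Its log2 fold change of 0.08 (SE 0.10) had the narrowest interval of the members, a fold of 0.901 to 1.24.

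Vegfc (ENSMUSG00000031520, chromosome 8, 54077606 to 54187096, plus strand), the lymphatic ligand, stood at 25.8, 16.9 and 20.96 CPM in shNgb and at 15.5, 27.6 and 18.7 CPM in shVec tumours, with both extremes in shVec. Its log2 fold change was 0.04 (SE 0.24), and the interval allowed a fold of 0.707 to 1.501. Pgf (ENSMUSG00000004791, chromosome 12, 85166635 to 85177790, minus strand) had 61 to 113 reads a library and stood at 5.21, 2.63 and 2.34 CPM in shNgb and at 5.15, 3.83 and 3.56 CPM in shVec tumours. In each group replicate 1 was the highest, and the pair of shNgb tumours with low Vegfa also had the lowest Pgf of all 6. Its log2 fold change was -0.31 (SE 0.34, fold interval 0.475 to 1.37), and it was -0.75 without shNgb replicate 1 and -0.10 without shNgb replicate 3. Vegfd, a further lymphatic ligand of the family that is outside the 9 genes, stood at 2.07 ± 0.520 CPM in shNgb and 1.84 ± 0.137 CPM in shVec tumours (log2 fold change 0.17, SE 0.29).

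Flt1 was the main receptor transcript, and its groups overlapped. Flt1 (ENSMUSG00000029648, chromosome 5, 147561604 to 147726011, minus strand) stood at 82.4, 96.6 and 79.3 CPM in shNgb and at 99.996, 85.0 and 65.5 CPM in shVec tumours. The shNgb values lay within the range of the shVec values. Its log2 fold change was 0.04 (SE 0.15), with a fold interval of 0.809 to 1.31.

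Kdr (ENSMUSG00000062960, chromosome 5, 75932827 to 75978458, minus strand), the main signalling receptor of VEGF-A, had 134 to 327 reads a library and stood at 7.76, 7.41 and 12.5 CPM in shNgb and at 9.57, 7.26 and 6.82 CPM in shVec tumours. A single tumour, shNgb replicate 3, stood above the rest, and it was also the tumour with the least Vegfa. The log2 fold change of 0.23 (SE 0.25, fold interval 0.797 to 1.72) became -0.06 without that tumour. Summed endothelial markers were highest in the same tumour, at 347 CPM. Shank3, the most abundant of them, was also highest there, at 78.6 CPM against 46.9 to 72.5 CPM in the other tumours. The mean log2 score of the markers was highest in shNgb replicate 1 (0.06, against 0.05 in shNgb replicate 3). The part of these markers in the Kdr result was not tested.

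Flt4 (ENSMUSG00000020357, chromosome 11, 49609263 to 49652739, plus strand), the receptor of VEGF-C, was scarce, with 57 to 91 reads a library. It stood at 3.86, 2.34 and 3.49 CPM in shNgb and at 3.69, 2.87 and 3.05 CPM in shVec tumours, and the shNgb tumours held both extremes. Its log2 fold change was 0.01 (SE 0.27), with a fold interval of 0.663 to 1.53. Of 9 lymphatic endothelial markers, Ccl21a had 0 reads in every library, only Pdpn and Nr2f2 passed the filter on low counts, and the lymphatic master regulator Prox1, named after its values were seen, had 4 reads in all. Pdpn stood at 0.545 ± 0.446 CPM in shNgb and 0.531 ± 0.199 CPM in shVec tumours. Nr2f2, which venous endothelium also expresses, stood at 69.7 ± 17.6 CPM in shNgb and 67.5 ± 5.16 CPM in shVec tumours.

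Both neuropilins overlapped between the groups, with a wide spread of Nrp1 over tumours. Nrp1 (ENSMUSG00000025810, chromosome 8, 128358604 to 128503363, plus strand), the co-receptor of KDR, stood at 47.8, 56.3 and 21.3 CPM in shNgb and at 50.7, 34.1 and 33.5 CPM in shVec tumours. Both the highest and the lowest value came from shNgb, 2.64-fold apart, and 6.37% of all tested genes had a wider range in that group. Its log2 fold change was 0.08 (SE 0.37, fold interval 0.574 to 1.95), and it was 0.40 without shNgb replicate 3 and -0.20 without shNgb replicate 2. Nrp2 (ENSMUSG00000025969, chromosome 1, 62703285 to 62818695, plus strand), the co-receptor of FLT4, stood at 138, 102 and 154 CPM in shNgb and at 136, 157 and 147 CPM in shVec tumours. Tumour shNgb replicate 2 was highest in Nrp1 and lowest in Nrp2, while shNgb replicate 3 was lowest in Nrp1. The log2 fold change of Nrp2 was -0.16 (SE 0.14, fold interval 0.711 to 1.13).

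Of 12 class 3 semaphorins and plexins, the other ligands and partners of the neuropilins, 11 were tested. By edgeR 0 were called and 0 had an unadjusted p under 0.05, and the median log2 fold change was 0.04. The 3 of smallest p were Plxna3, Plxna1 and Sema3e, with log2 fold changes of -0.20, -0.08 and 0.17.

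Balances between members were taken within each tumour, which removes the scaling of the library. The difference of Flt1 and Kdr in log2 CPM was 3.39, 3.69 and 2.65 in shNgb and 3.37, 3.53 and 3.25 in shVec tumours (two-sided exact permutation p = 0.9). That of Nrp1 and Nrp2 was -1.53, -0.85 and -2.85 in shNgb and -1.42, -2.20 and -2.13 in shVec tumours (exact permutation p = 1.0). That of Pgf and Vegfa was -6.84, -7.29 and -6.86 in shNgb and -7.08, -7.47 and -7.57 in shVec tumours (exact permutation p = 0.2). The groups overlapped in all 3 balances, and with 3 against 3 tumours this test allows no p below 0.1. These are 3 of 7 such within-tumour differences, and adjustment over them could only raise the p-values.

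**Figure D4:**
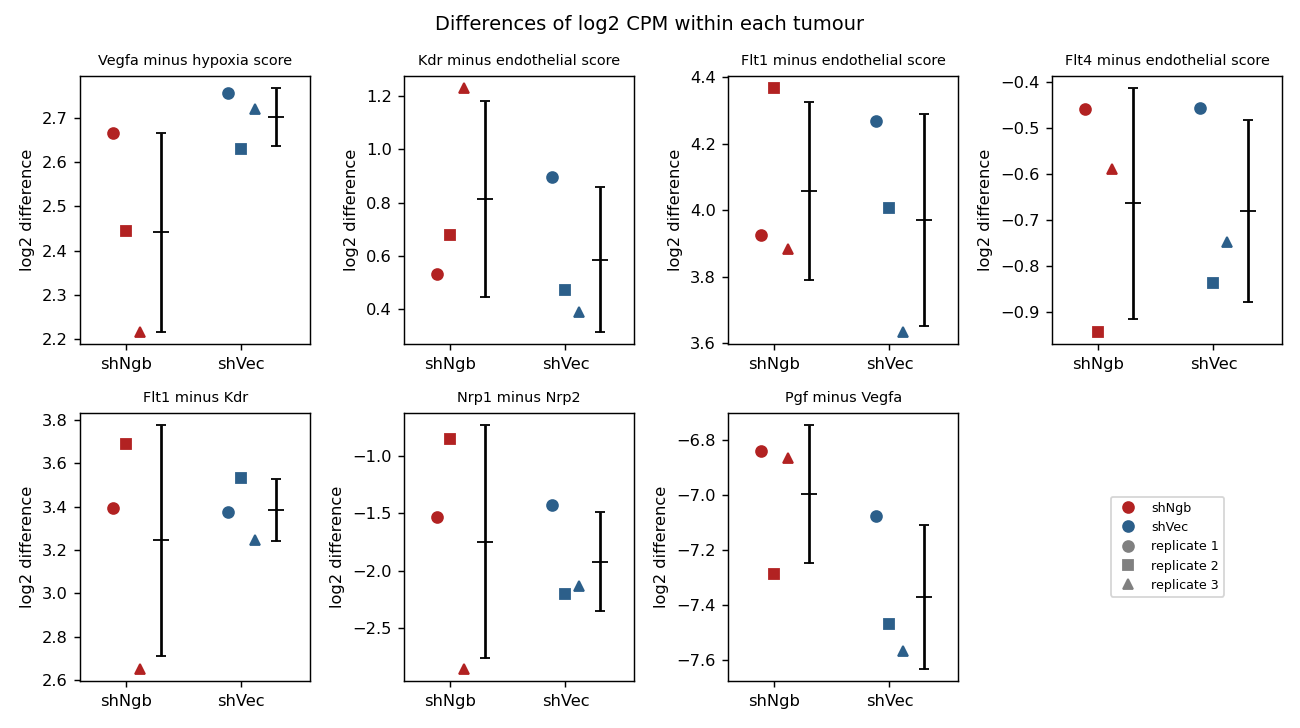
Differences of log2 CPM within each tumour, shNgb left and shVec right, for 7 pairs of a member with another member or with the mean of a marker list, with mean ± SD of 3 tumours. The groups overlap in all 7, and the smallest exact permutation p was 0.2.

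Vegfa was set beside 35 other genes of the hypoxia response, a list taken with the direction of its values in these tumours already known, so its counts are a description and not independent evidence. By edgeR 0 of the 35 were called in either direction, 12 had an unadjusted p under 0.05 and a lower level in shNgb (1.22% of all tested genes did), and all 35 log2 fold changes were below 0, with a median of -0.29. In 17 of the 35 every shNgb tumour lay below every shVec tumour, as in 3.43% of all tested genes. Those of smallest p were the hexokinase Hk2, at 83.7 ± 6.58 CPM in shNgb and 112 ± 9.72 CPM in shVec tumours, the protein-folding oxidase Ero1l, at 208 ± 49.1 CPM in shNgb and 317 ± 32.2 CPM in shVec tumours, and the glycolytic enzyme Aldoa, at 639.6 ± 67.4 CPM in shNgb and 758 ± 18.3 CPM in shVec tumours. Of the 35, 7 had a lower log2 fold change than Vegfa and 6 a higher mean FPKM. The lowest log2 fold change, -1.67, was that of Gapdh, chosen after its values were seen. Gapdh stood at 22.8, 15.5 and 18.7 CPM in shNgb and at 31.9, 126 and 23.6 CPM in shVec tumours, so that its fold change rests largely on shVec replicate 2, and its many near-identical pseudogenes make its count uncertain.

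Vegfa and the mean of these genes were lowest in the same tumours. Relative to its mean over the 6 tumours, log2 CPM of Vegfa was 0.17, -0.34 and -0.93 in shNgb and 0.39, 0.36 and 0.36 in shVec tumours. The mean of the 35 genes was 0.07, -0.22 and -0.58 in shNgb and 0.20, 0.31 and 0.21 in shVec tumours. The lowest of the 6 tumours was shNgb replicate 3 for 28 of the 35 genes, where it was the lowest for 20.9% of all tested genes. Vegfa minus the mean of the 35 was 2.67, 2.44 and 2.22 in shNgb and 2.76, 2.63 and 2.72 in shVec tumours (two-sided exact permutation p = 0.2). The groups differed by -0.26 on the log2 scale, and 1 shNgb tumour lay inside the shVec range. Macrophage markers (17 of 17 tested, none at 0 reads) summed to 261, 501 and 644 CPM in shNgb and to 199, 421 and 316 CPM in shVec tumours. Fibroblast markers (8 of 11 tested) summed to 2505, 2096 and 1239 CPM in shNgb and to 2066, 1776 and 1859 CPM in shVec tumours. The largest part of that sum was Col3a1, named after its values were seen, at 605 CPM in shNgb replicate 3, whereas the mean log2 score of the list was lowest in shVec replicate 3 (-0.49, against -0.27 in shNgb replicate 3). T and NK cell markers (11 of 13 tested) summed to 5.93, 22.0 and 43.6 CPM in shNgb and to 7.52, 23.3 and 6.01 CPM in shVec tumours. Tumour shNgb replicate 3, the lowest in Vegfa, was highest in summed macrophage and T and NK cell markers and was the deepest library, and the part of these in the Vegfa result was not tested.

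**Figure D5:**
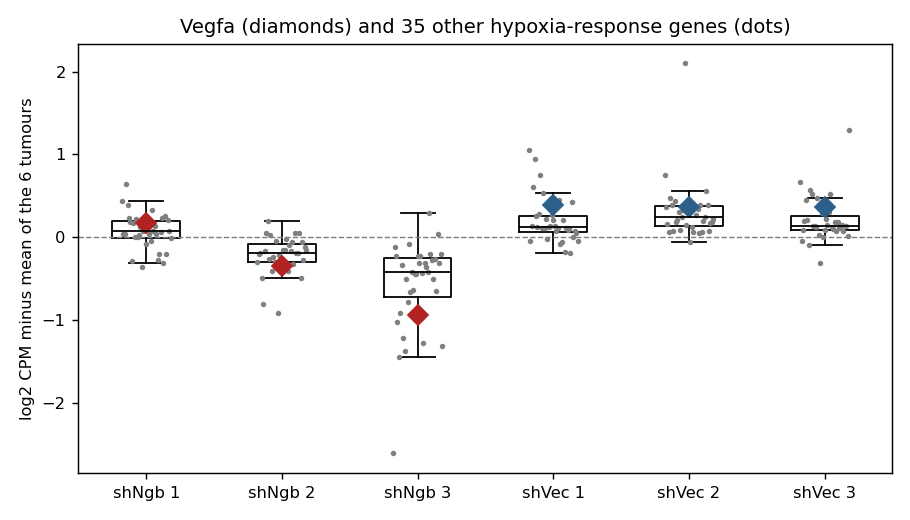
Log2 CPM of Vegfa (diamonds) and of 35 other hypoxia-response genes (grey dots, with boxes for quartiles and whiskers to 1.5 times the box height) relative to each gene's mean over the 6 tumours. Vegfa lies at -0.93 in shNgb replicate 3 and between 0.36 and 0.39 in the shVec tumours.

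Of 10 HIF subunits and oxygen sensors 8 were tested, and by edgeR 0 were called, 0 had an unadjusted p under 0.05 and 6 were negative, with a median log2 fold change of -0.05. Hif1a, the oxygen-regulated HIF subunit, stood at 297 ± 37.5 CPM in shNgb and 315 ± 2.68 CPM in shVec tumours. The list shares the prolyl hydroxylases Egln1 and Egln3 with the hypoxia genes. Of 19 factors of Vegfa transcription and mRNA stability outside HIF, 18 were tested, 0 were called and 14 were negative, with a median of -0.10. The 3 with an unadjusted p under 0.05 were the stress factor Atf4, at 449.8 ± 29.8 CPM in shNgb and 567 ± 62.2 CPM in shVec tumours, Zfp36, which promotes decay of AU-rich mRNAs, at 20.6 ± 2.97 CPM in shNgb and 30.4 ± 5.38 CPM in shVec tumours, and Elavl1, which stabilises them, at 235 ± 23.2 CPM in shNgb and 270.3 ± 3.88 CPM in shVec tumours. Such a p was reached by 2.58% of all tested genes in either direction.

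Endothelial markers were set beside the receptors and gave 0 calls by edgeR. Which cells held the receptor reads was not measured. All 30 were tested, 12 were positive and 18 negative, and the median log2 fold change was -0.03. Their summed level was 313, 280.4 and 347 CPM in shNgb and 314, 322 and 334 CPM in shVec tumours, so that the shNgb tumours held both extremes. Shank3, the most abundant of them, also had both extremes in shNgb tumours, at 46.9 and 78.6 CPM. The 1 marker with an unadjusted p under 0.05 was Lyl1, a transcription factor of blood and endothelium, at 2.11 ± 0.382 CPM in shNgb and 1.003 ± 0.158 CPM in shVec tumours. Such a p was reached by 2.58% of all tested genes in either direction.

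Per length, Flt1 stood above most of these markers and Kdr below most of them. The 30 markers ran from 0.170 to 14.8 FPKM with a median of 1.23, and 4 of them exceeded Flt1, 19 exceeded Kdr and 26 exceeded Flt4. The junction proteins Cdh5 and Pecam1, named after their values were seen, averaged 3.92 and 3.25 FPKM. Nrp1 was exceeded by 4 and Nrp2 by 1 of the 30. Within tumours, Kdr minus the mean of the endothelial markers in log2 CPM was 0.53, 0.68 and 1.23 in shNgb and 0.90, 0.47 and 0.39 in shVec tumours (exact permutation p = 0.5). The same difference for Flt1 averaged 4.06 ± 0.27 in shNgb and 3.97 ± 0.32 in shVec (exact permutation p = 0.8) and for Flt4 -0.66 ± 0.25 in shNgb and -0.68 ± 0.20 in shVec (exact permutation p = 1.0).

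Genes that act below or beside the receptors gave 0 calls by edgeR in each of the following lists. Of 32 signal relay genes 21 were negative, with a median log2 fold change of -0.05, and 1, the protein kinase C gene Prkcb, had an unadjusted p under 0.05, at 1.95 ± 0.268 CPM in shNgb and 1.14 ± 0.345 CPM in shVec tumours. Of 19 VEGF-induced endothelial genes, among them the members Flt1 and Pgf, 12 were negative, with a median of -0.13. The 1 with an unadjusted p under 0.05 was Angpt2, the antagonist ligand of the TEK receptor, at 16.0 ± 2.86 CPM in shNgb and 11.2 ± 1.81 CPM in shVec tumours, with overlapping groups. Of 18 partners that hold or traffic the receptors 10 were positive, with a median of 0.01 and 0 at an unadjusted p under 0.05. Of 31 other angiogenic factors, which include Angpt2, 27 were tested and 14 were negative, with a median of -0.02. Among all tested genes 2.58% had an unadjusted p under 0.05 in either direction.

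Of 19 genes that hold VEGF in the matrix or release it, 18 were tested, 0 were called and 10 were negative, with a median of -0.04. The 3 with an unadjusted p under 0.05 were the matrix protease Adamts1, at 47.1 ± 8.53 CPM in shNgb and 67.7 ± 16.9 CPM in shVec tumours, the heparan sulphate proteoglycan Sdc4, at 72.2 ± 2.91 CPM in shNgb and 89.4 ± 11.1 CPM in shVec tumours, and the angiogenesis inhibitor Thbs2. Thbs2 stood at 44.4, 16.6 and 29.5 CPM in shNgb and at 14.7, 15.1 and 12.9 CPM in shVec tumours, without overlap. Thbs2 was the 1 gene of the 18 that was higher in shNgb without overlap. Lower without overlap were 3 of the 18, Sdc4 and, named after their values were seen, Sdc2 and Ndst1. Of all tested genes, 3.67% were higher and 3.43% lower in shNgb without overlap, and 2.58% had an unadjusted p under 0.05 in either direction. Thbs2 is also a fibroblast product, and the fibroblast marker Col1a1 stood at 281 ± 72.1 CPM in shNgb and 155 ± 36.0 CPM in shVec tumours. Col1a1 was the 1 of 8 tested fibroblast markers that was higher in shNgb without overlap. Log2 fold changes were positive in 7 of the 8 and negative in 1, Col3a1. Col3a1, the most abundant, stood at 1262 ± 574 CPM in shNgb and 1468 ± 119 CPM in shVec tumours. The part of fibroblasts in the Thbs2 value was not tested.

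Markers of other host cells, which can also carry VEGF family genes, gave 0 calls by edgeR. Which cells, of the host or G422, held the reads of these markers was not measured. Median log2 fold changes were -0.27 over 14 tested pericyte and smooth muscle markers, 0.57 over 17 macrophage, 0.45 over 8 fibroblast, 1.07 over 11 T and NK cell and 0.94 over 3 neutrophil markers, with the neutrophil marker Ly6g at 0 reads. Log2 fold changes were positive in 5 of the 14, 16 of the 17, 7 of the 8, 11 of the 11 and 3 of the 3 markers in that order. Neutrophil markers (3 of 10 tested) summed to 13.6, 3.21 and 6.13 CPM in shNgb tumours and overlapped with shVec, at most 4.59 CPM. S100a9, which gave their median, was highest in shNgb replicate 1. Its values in shNgb replicates 2 and 3, 0.288 and 0.268 CPM, lay below every shVec tumour (0.509 to 1.09 CPM). Il1r2 was also highest in shNgb replicate 1 and overlapped, whereas Csf3r was higher in shNgb without overlap. Over 8 tested glioma and neural markers the median was -0.06. Unadjusted p under 0.05 was reached by 1 pericyte marker (Acta2), 2 macrophage markers (Ccr2 and Fcgr1), 2 fibroblast markers (Col1a1 and Col1a2), 1 neutrophil marker (Csf3r) and 1 glioma marker (Nes), the last lower in shNgb and the others higher. Over all tested genes the share with such a p was 2.58% in either direction. Nrp1, Nrp2 and Flt1 are known from macrophages as well as from vessels, and which cells held the reads was not measured.

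The genes whose pattern over the 6 tumours was most like that of a member were ranked by Pearson's r of log2 CPM among 9132 protein-coding genes with a mean of at least 10 CPM. The coefficients are descriptions over the same 6 libraries, each the highest among all these genes. For Vegfa they were Ndrg1, a hypoxia-induced stress gene (r = 0.994), Srp68, a subunit of the signal recognition particle (0.991), Gys1, muscle-type glycogen synthase (0.988), the myosin light chain Myl12a (0.988) and the helicase Dhx36 (0.981). Ndrg1 stood at 176, 106 and 57.8 CPM in shNgb and at 193, 182 and 201 CPM in shVec tumours, while Srp68 ranged only from 232 to 252 CPM in shNgb and from 253 to 255 CPM in shVec. For Kdr they were the metalloprotease Adam15 (0.992), Dhx32 (0.989), the ubiquitin ligase adaptor Spop (0.983), Ssh3 (0.982) and the lysosomal enzyme Galns (0.982), and for Pgf Chtop (0.994), the ribosomal protein gene Rpl7 (0.984), the transcription factor Tbx3 (0.983), the fatty acid desaturase Scd2 (0.978) and Morc4 (0.977).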

How the data were processed

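RNA sequencing counts of 6 tumours (shNgb and shVec, 3 each, grouped by sample title) were analysed. Trizol RNA went into Illumina TruSeq RNA libraries, per the labels' protocols, a kit that does not mark strand. The submitters' processing notes name Bowtie 0.12.2, mm8 and mm10 with no role for each; which tool counted, and what it did with reads of several matches, is not given in the sources used here. Deposited by the authors were whole-number read counts per Ensembl gene and a table of FPKM for the same samples. In the 9 genes FPKM equalled the count divided by one library factor and a length proportional to the merged exons of all GENCODE M21 transcripts (GRCm38), which is 13504 bases for Flt1 and 4285 for Vegfa; isoforms are not told apart. FPKM was used only to compare levels between genes. Symbols came from GENCODE M21, which named 54409 of 54532 IDs; the other 123 held at most 0.0269% of a library's reads and stayed in the tests. Of the genes that overlap a member, none but Mir1903 (0 reads) shared exon bases with one.

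edgeR 4.0.16 in R 4.3.3 (default expression filter, TMM scaling, robust quasi-likelihood F-test, Benjamini-Hochberg adjustment over 15203 tested genes, threshold 0.05) was fitted without a block. All 9 genes passed the filter. Each SE is the log2 fold change over the root of F, and intervals have 95% confidence. Scarce members had few reads, down to 57 in a library for Flt4. The largest SE of the members, 0.37, was that of Nrp1, which had 555 to 1369 reads a library. Log2 CPM used a prior count of 2, and within-tumour differences went into two-sided exact permutation tests. Lists were described by counts and medians, with no test. The rule for named genes took the members, Ngb, the 3 genes of smallest p of each list, the 2 most abundant markers of each cell type and markers at 0 reads, with the 5 genes most like Vegfa, Kdr and Pgf; not all of these are named in the text. The members and lists were chosen with earlier results of these data known. The code was tested on simulated counts. Tried as alternatives were a replicate block, DESeq2 1.42.0, scaling by RLE or by the upper quartile, limma-voom from limma 3.58.1, a strict filter (in 3 libraries, at least 10 reads and 1 CPM) or none, a threshold of 0.1, a prior count of 0.5, medians for means in list scores, and leaving out each library. Promoters were taken from RefSeq (GRCm38.p6) for all 9 genes. No protein sequences were used here.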

Additional observations from a re-analysis of the deposited data

How the results depend on the processing

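In none of 126 fits of a member (9 genes, the edgeR fit and 13 alternatives) was an adjusted p under 0.05, and the lowest was 0.386, for Vegfa without shNgb replicate 1. The number of genes called was 0 in the edgeR fit, 3 with no filter beyond 1 read, 5 with DESeq2 and 1 with the replicate block, and 0 under the other alternatives; none was a member. The log2 fold change of Vegfa stayed negative, between -0.75 and -0.66 over the other settings; its unadjusted p was 0.0912 with no filter beyond 1 read and 0.000728 with DESeq2, and ran from 0.000393 to 0.102 when 1 library was left out. That of Flt4 was -0.027 with limma-voom and -0.00837 with the replicate block, and that of Nrp1 -0.032 and -0.000292, where both were positive in the edgeR fit; the cause was not tested. Deviations from the group means correlated with r of 0.26, -0.14 and -0.10 for same-numbered tumours of the groups. For differently numbered tumours r ran from -0.26 to 0.33. Deviations from a mean of 3 tumours are not independent, so these values cannot decide whether the numbers pair the tumours. With the replicate block the log2 fold change of Vegfa was -0.74 (edgeR adjusted p = 0.99997). Leaving out each library in turn gave log2 fold changes of -0.98 to -0.44 for Vegfa, 0.01 to 0.16 for Vegfb, -0.13 to 0.31 for Vegfc, -0.75 to -0.10 for Pgf, -0.11 to 0.19 for Flt1, -0.060 to 0.39 for Kdr, -0.14 to 0.19 for Flt4, -0.20 to 0.40 for Nrp1 and -0.29 to -0.00489 for Nrp2, and 0 calls each time. The same gave within-tumour differences of -0.37 to -0.15 for Vegfa against the hypoxia genes, 0.02 to 0.38, -0.079 to 0.24 and -0.086 to 0.16 for Kdr, Flt1 and Flt4 against the endothelial markers, -0.36 to 0.16 for Flt1 against Kdr, -0.27 to 0.73 for Nrp1 against Nrp2 and 0.27 to 0.52 for Pgf against Vegfa. Flt4 and Pgf, with 57 to 113 reads a library, could hide folds within their intervals. So could Nrp1, with 555 to 1369 reads a library and the largest SE of the members (0.37).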
